A study of Mus musculus with 16 samples.

Results

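The p53, p21 and cyclin D genes of the G1 checkpoint were followed by name through RNA sequencing of mouse rotator cuff muscle after tendon removal with denervation. The 10 genes were Cdkn1a, Cdkn1b, Trp53, Mdm2, Ccng1, Ccnd1, Ccnd2, Ccnd3, Rb1 and Cdk4, and all 10 were found among the 11710 genes of the count table. The 16 samples formed 4 groups of 4. They came from C57BL/6J mice (BL6) or MRL/MpJ mice (MRL), whose rotator cuff muscle was either left unoperated or had its tendon removed together with denervation. The sample labels name the supraspinatus and the series text the infraspinatus, so the tissue is called rotator cuff muscle here. Both injuries were always made together, so the effect of lost tendon load and that of lost nerve supply cannot be told apart. MRL is a separate inbred strain, so a difference from BL6 belongs to the whole genome and to no single gene. No group carried a transgene or a deletion by its labels, and sex, age and the time after surgery were not used here. The labels do not say whether the samples of a group came from separate animals, and p-values then measure only the spread between these samples.

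Cdkn1a encodes p21, which binds and inhibits cyclin and cyclin-dependent kinase (CDK) complexes and is a classic transcriptional target of the tumour suppressor p53. Cdkn1b encodes p27, a relative of p21. Mdm2 encodes the ubiquitin ligase that targets p53 for degradation and is itself a p53 target, and Ccng1 encodes cyclin G1, another p53 target. The D-type cyclins (Ccnd1, Ccnd2, Ccnd3) pair with the kinase Cdk4 to phosphorylate the retinoblastoma protein, encoded by Rb1, which otherwise holds E2F transcription factors in check. In muscle, p21 and Rb are known for their part in the lasting cell cycle exit of differentiating myoblasts. Low p21 has been linked to the ear-hole healing of MRL mice, which is why Cdkn1a is of interest in this strain.

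Total counts ran from 24323862 to 43552964 per sample, and the 13 mitochondrial genes took 10.97 to 14.2% of the counts in unoperated samples and 11.8 to 24.9% in operated ones. All 8 muscle fibre markers were detected in every sample, with a summed level of 60190 to 173700 CPM (a gene's counts per 1000000, on library sizes scaled by trimmed means of M values). Operated BL6 replicate 4 stood apart, with 7591 CPM summed over 7 fibroblast markers against 1216 to 2082 in the other operated BL6 samples, and 528.5 CPM over 8 macrophage and leukocyte markers against 83.4 to 157. Unoperated MRL replicate 1 stood apart in the same way, with 312 CPM of macrophage and leukocyte markers against 75.5 to 97.5, and 2640 CPM of fibroblast markers against 1434 to 1464. Unoperated BL6 replicate 1 did so to a smaller degree, with 142 CPM of macrophage and leukocyte markers against 38.3 to 57.4 and 1638 CPM of fibroblast markers against 693 to 981. Operated MRL replicate 4 stood apart in other measures: mitochondrial genes took 11.8% of its counts against 20.1 to 24.9% in the other operated MRL samples, and its 5 endothelial markers summed to 313.5 CPM against 618 to 746. Its chi-square per degree of freedom against the other 3 samples, over genes, was 233 to 301, and 44.4 to 64.4 among those 3. Operated BL6 replicate 4 was also high by this value, at 157 to 406 against the other 3 of its group and 45.2 to 141 among those. No tested marker of these lists was at 0 throughout a group, but the count table holds only genes with a mean of at least 1.05 CPM. Of 5 lymphocyte markers 0 were among the genes tested, so they were not analysed here. In bulk muscle, fewer cells of a type and less RNA per cell cannot be told apart.

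**Figure D1:**
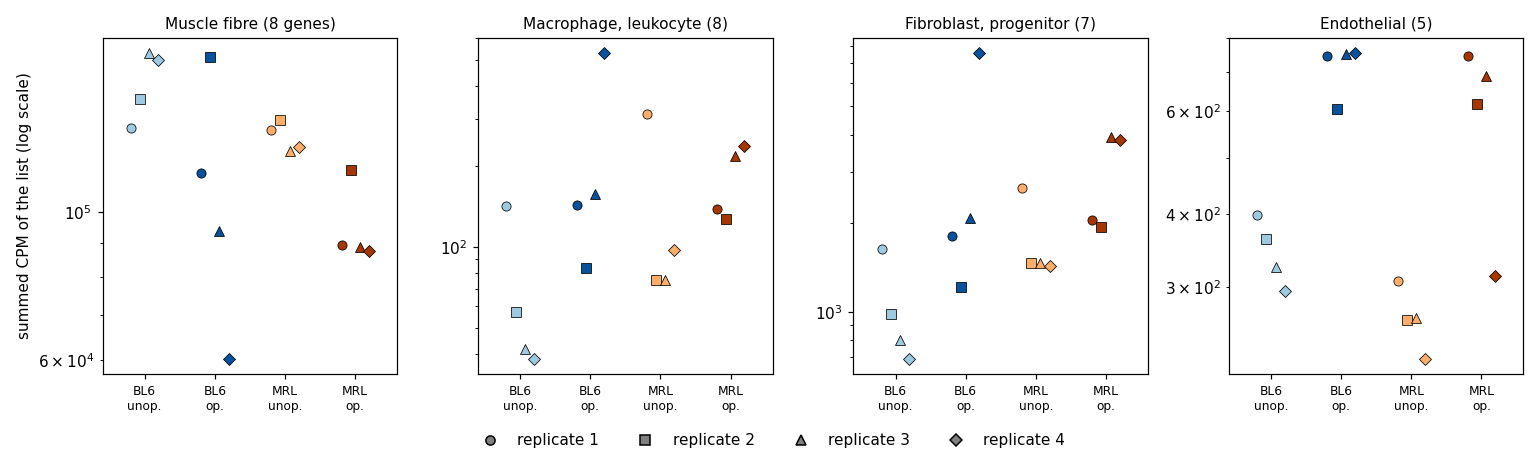
Summed CPM of the muscle fibre, macrophage and leukocyte, fibroblast and endothelial marker lists (log axis) in each sample. Each point is a sample, with the 4 groups along the horizontal axis. Operated BL6 replicate 4 has the highest fibroblast sum, 7591 CPM, and the highest macrophage and leukocyte sum, 528.5 CPM.

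The promoter sequences below show where the p53 half-site, the decamer bound by a pair of p53 subunits, occurs in 3 known p53 targets, of which 1 rose, 1 fell and 1 did not pass the test after surgery. RefSeq promoters of build GRCm38.p6 (250 bases before to 50 after each start) were matched by symbol for 7 of the 10 genes, which gave 9 promoters; none was matched for Ccnd1, Ccnd2 and Rb1. The 250 bases before the start are printed in the direction of the gene, 5′ to 3′, and capitals mark exact matches to the half-site, searched on both strands. The Cdkn1a stretch lies at chr17:29090729-29090978 on the plus strand, the Ccng1 stretch at chr11:40755287-40755536 on the minus strand and the Mdm2 stretch at chr10:117710759-117711008 on the minus strand.
Cdkn1a: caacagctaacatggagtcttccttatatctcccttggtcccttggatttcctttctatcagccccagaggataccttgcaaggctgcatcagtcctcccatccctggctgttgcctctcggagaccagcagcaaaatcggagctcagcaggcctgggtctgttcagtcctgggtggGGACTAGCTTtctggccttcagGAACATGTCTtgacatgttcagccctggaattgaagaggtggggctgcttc
Ccng1: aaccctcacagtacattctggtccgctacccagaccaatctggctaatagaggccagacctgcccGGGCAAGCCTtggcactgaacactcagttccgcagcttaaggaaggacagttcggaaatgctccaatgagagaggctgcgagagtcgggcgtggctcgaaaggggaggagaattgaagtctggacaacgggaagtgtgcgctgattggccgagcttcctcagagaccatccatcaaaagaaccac
Mdm2: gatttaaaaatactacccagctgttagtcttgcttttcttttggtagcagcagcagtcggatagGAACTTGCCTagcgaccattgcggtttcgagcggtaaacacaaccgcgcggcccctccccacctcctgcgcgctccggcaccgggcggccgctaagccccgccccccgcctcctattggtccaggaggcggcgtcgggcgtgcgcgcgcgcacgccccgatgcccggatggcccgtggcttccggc
The Cdkn1a stretch is that of its upstream promoter and held 2 matches, at bases -73 to -64 and -51 to -42 from that start. Which Cdkn1a start was in use in these samples was not tested. Ccng1 held 1 at bases -185 to -176 and Mdm2 1 at -186 to -177. Trp53 held 1 match at -75 to -66, and the other 5 promoters (Cdkn1b, Cdk4, both of Ccnd3 and the downstream promoter of Cdkn1a, at chr17:29093519-29093818) held none. A half-site was present in 8.36% of the 32851 RefSeq promoters of the same length. A match describes letters only, and these data hold no measurement of p53 binding.

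Cdkn1a rose after surgery in both strains. The gene lies at chr17:29090976-29100727 in GENCODE M21 (GRCm38), as do the positions of the other genes below. In unoperated BL6 it stood at 13.2, 15.4, 18.4 and 15.6 CPM in replicates 1 to 4, and in operated BL6 at 79.9, 86.6, 90.0 and 126 CPM. In unoperated MRL it stood at 17.0, 17.9, 15.1 and 18.3 CPM, and in operated MRL at 32.7, 28.3, 73.2 and 63.8 CPM. The unoperated samples of both strains formed a narrow band, every operated sample lay above it, and the operated MRL samples fell into a lower and a higher pair, all of them under every operated BL6 sample. Group means were 15.7 ± 2.13, 95.6 ± 20.6, 17.1 ± 1.40 and 49.5 ± 22.3 CPM in the same order (SD, n = 4). The log2 fold change was 2.61 in BL6 (SE 0.26, adjusted p = 8.772e-06, edgeR quasi-likelihood test), a 6.09-fold rise that ranked 187 by size among the 11709 genes tested. In MRL it was 1.54 (SE 0.25, adjusted p = 0.000914), a 2.90-fold rise that ranked 368.

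The lower and the higher pair of operated MRL samples also differed in 2 of the marker sums. Replicates 3 and 4, with the higher Cdkn1a, had 3931 and 3853 CPM of fibroblast markers and 219 and 238 CPM of macrophage and leukocyte markers. Replicates 1 and 2, with the lower Cdkn1a, had 2054 and 1950 CPM of fibroblast markers and 138 and 127 CPM of macrophage and leukocyte markers. Among operated BL6 samples, replicate 4 was highest in Cdkn1a and in both marker sums, whereas replicate 2 had 86.6 CPM of Cdkn1a with the lowest sums of its group, 1216 and 83.4 CPM. Other measures did not follow the pairs. In replicates 1 to 4 of operated MRL the endothelial sum was 746, 618, 690 and 313.5 CPM, the Schwann cell sum 228, 82.8, 153 and 63.4 CPM, the adipocyte sum 1902, 1407, 1709 and 1086 CPM and the mitochondrial share 24.9, 20.1, 21.7 and 11.8%, so replicates 3 and 4 lay apart in each. The Cdkn1a rise in MRL passed in all 16 fits that left out 1 sample, replicate 4 included, at 1.29 to 1.73. The part of these cell types in the Cdkn1a levels was not tested.

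Cdkn1b, at chr6:134920401-134925513, moved the other way and by less. It ran from 38.3 to 45.5 CPM in unoperated BL6 and from 30.3 to 34.1 CPM in operated BL6, with no overlap. In MRL it ran from 38.4 to 44.1 CPM unoperated, and stood at 38.0, 28.7, 37.2 and 36.7 CPM operated, where replicate 2 was lowest. The fall in BL6 passed the test (log2 fold change -0.38, SE 0.10, adjusted p = 0.00264) and was no longer past it when counts were scaled by library totals alone (-0.25, adjusted p = 0.110). In MRL the difference was -0.24 (interval -0.42 to -0.05 at 95%, adjusted p = 0.0551), just short of the threshold, and it passed in 6 of 25 other settings, among them without unoperated MRL replicate 1 or without operated MRL replicate 4.

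Within a sample, the log2 CPM of Cdkn1a minus that of Cdkn1b turned from negative to positive in BL6. Its mean was -1.42 ± 0.17 in unoperated BL6 and 1.55 ± 0.33 in operated BL6 (SD, n = 4), with operated values of 1.40, 1.37, 1.40 and 2.04. It was -1.28 ± 0.18 in unoperated MRL and 0.38 ± 0.59 in operated MRL, with operated values of -0.22, -0.02, 0.98 and 0.80. So the difference reached positive values in all 4 operated BL6 samples and in 2 of the 4 operated MRL samples. Library scaling cancels in this difference, but gene length does not. The count of positive samples therefore does not show in how many of them Cdkn1a was the higher gene. Per kb of exons, operated MRL held 13.9 ± 6.29 CPM of Cdkn1a and 7.73 ± 0.95 of Cdkn1b (SD, n = 4).

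**Figure D2:**
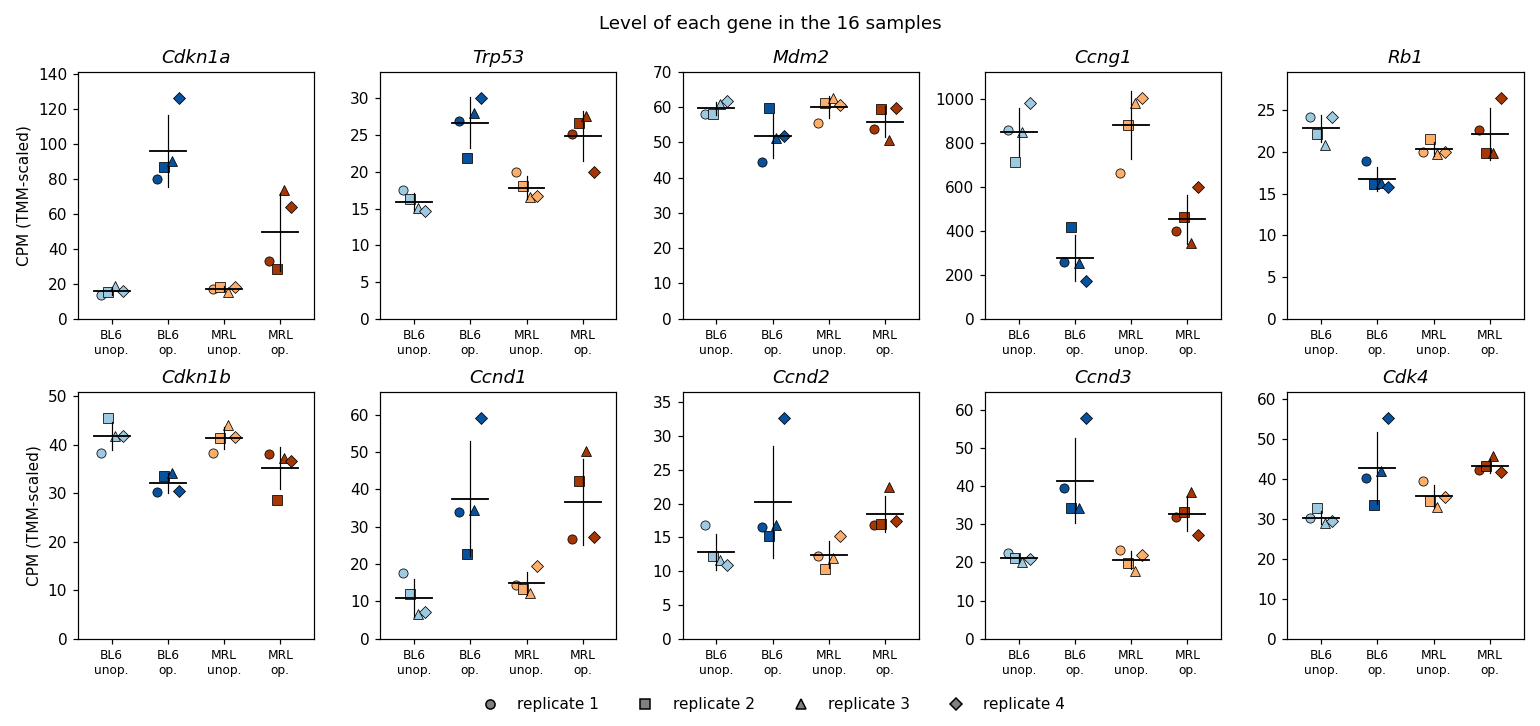
CPM of each of the 10 genes in every sample, one panel per gene, with points for samples, a line for the group mean and a bar for 1 SD. Operated BL6 samples hold Cdkn1a between 79.9 and 126 CPM, above the operated MRL samples at 28.3 to 73.2 CPM, while unoperated samples of both strains sit between 13.2 and 18.4 CPM.

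Trp53, the p53 gene at chr11:69580359-69591873, rose in both strains. Its levels were 17.5, 16.3, 15.1 and 14.7 CPM in unoperated BL6 and 27.0, 21.9, 28.0 and 30.0 CPM in operated BL6. In MRL they were 19.9, 18.1, 16.6 and 16.7 CPM unoperated and 25.2, 26.7, 27.6 and 19.95 CPM operated. Every operated sample lay above every unoperated sample of its strain, by a hair in MRL, where the lowest operated value (19.95) was next to the highest unoperated one (19.93). The rise was 0.75 on the log2 scale in BL6 (SE 0.12, adjusted p = 9.38e-05) and 0.48 in MRL (SE 0.12, adjusted p = 0.00622).

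Mdm2, at chr10:117688875-117710758, did not pass the test in either strain. It stood at 58.1, 58.1, 60.8 and 61.6 CPM in unoperated BL6 and at 44.5, 59.7, 51.4 and 51.9 CPM in operated BL6, and the groups overlapped through operated replicate 2. In MRL it ran from 55.4 to 62.5 CPM unoperated and from 50.6 to 59.7 CPM operated. The log2 difference was -0.20 in BL6 (interval -0.39 to -0.02, adjusted p = 0.0673) and -0.10 in MRL (interval -0.29 to 0.08, adjusted p = 0.384). Without operated BL6 replicate 2 the BL6 value was -0.28 and passed (adjusted p = 0.0132). The upper bound was under 0 in BL6 and 0.08 in MRL, so neither interval held a rise of the size seen for Trp53 or Cdkn1a. The log2 CPM of Cdkn1a minus that of Mdm2 went from -1.93 ± 0.17 to 0.87 ± 0.31 in BL6 and from -1.81 ± 0.16 to -0.29 ± 0.73 in MRL (SD, n = 4).

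Ccng1, at chr11:40748552-40755311, fell in both strains although it is a known p53 target. It stood at 857, 713, 848 and 981 CPM in unoperated BL6 and at 259, 418, 252 and 173 CPM in operated BL6. In MRL it stood at 661, 878, 981 and 1001 CPM unoperated and at 399, 462, 343 and 599 CPM operated. The groups did not overlap in either strain, and operated BL6 replicate 4, highest in Cdkn1a, was lowest in Ccng1. Its log2 fold change was -1.63 in BL6 (SE 0.24, adjusted p = 6.254e-05) and -0.97 in MRL (SE 0.24, adjusted p = 0.00605). Of the 3 promoters printed above, 1 belongs to a gene that rose, 1 to a gene that fell and 1 to a gene that did not pass the test.

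The cyclin D genes rose together in BL6 and in MRL, with Ccnd1 moving most. Ccnd1 (cyclin D1), at chr7:144929931-144939925, stood at 17.6, 11.9, 6.63 and 7.20 CPM in unoperated BL6 and at 33.8, 22.7, 34.5 and 59.0 CPM in operated BL6. In MRL it stood at 14.3, 13.4, 12.4 and 19.4 CPM unoperated and at 26.7, 42.1, 50.2 and 27.3 CPM operated. All operated samples lay above all unoperated samples of their strain, with a wide spread in each group. On the log2 scale the rise was 1.79 in BL6 (SE 0.33, adjusted p = 0.000308) and 1.30 in MRL (SE 0.33, adjusted p = 0.00679).

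Ccnd3 (cyclin D3, the D-type cyclin best known from differentiating muscle), at chr17:47505051-47599691, had the tightest unoperated range of the 3 in BL6, 19.98 to 22.4 CPM. Operated BL6 samples stood at 39.4, 34.2, 34.1 and 57.7 CPM. In MRL it ran from 17.6 to 23.2 CPM unoperated and stood at 31.9, 33.3, 38.5 and 27.2 CPM operated. Neither strain's groups overlapped, and operated BL6 replicate 4 was highest. In log2 terms Ccnd3 rose by 0.97 in BL6 (SE 0.16, adjusted p = 0.000102) and by 0.67 in MRL (SE 0.16, adjusted p = 0.00458).

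Ccnd2 (cyclin D2), at chr6:127125162-127152193, gave the weakest rise of the 3. It stood at 16.8, 12.2, 11.6 and 10.9 CPM in unoperated BL6 and at 16.5, 15.2, 16.8 and 32.6 CPM in operated BL6, where the groups overlapped and replicate 4 was far above the rest. In MRL it ran from 10.4 to 15.1 CPM unoperated and stood at 16.8, 17.0, 22.4 and 17.5 CPM operated, with no overlap. The log2 fold change was 0.66 in BL6 (SE 0.22, adjusted p = 0.0157), and without operated BL6 replicate 4 it was 0.32 and did not pass (adjusted p = 0.0875). In MRL it was 0.56 (SE 0.22, adjusted p = 0.0484), and this call was lost in 12 of the 16 fits that left out 1 sample and held only without unoperated BL6 replicate 1, operated BL6 replicate 2 or 4, or unoperated MRL replicate 4.

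Cdk4, the kinase partner of the D-type cyclins, at chr10:127063534-127067920, rose in BL6. It stood at 30.1, 32.6, 29.0 and 29.3 CPM in unoperated BL6 and at 40.1, 33.5, 42.0 and 55.1 CPM in operated BL6, with no overlap. In MRL it stood at 39.6, 34.3, 33.0 and 35.4 CPM unoperated and at 42.1, 43.3, 45.7 and 41.6 CPM operated, also with no overlap. The log2 fold change was 0.50 in BL6 (SE 0.12, adjusted p = 0.00203). In MRL the difference of 0.28 (interval 0.05 to 0.51) did not pass (adjusted p = 0.0661), but it passed without unoperated MRL replicate 1, without operated BL6 replicate 2 and without operated BL6 replicate 4.

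Rb1, at chr14:73183673-73325822, fell in BL6 and did not pass the test in MRL. It stood at 24.2, 22.2, 20.9 and 24.2 CPM in unoperated BL6 and at 18.9, 16.1, 16.3 and 15.8 CPM in operated BL6. In MRL it stood at 19.9, 21.6, 19.8 and 19.9 CPM unoperated and at 22.6, 19.9, 19.8 and 26.4 CPM operated. The BL6 groups did not overlap and the MRL groups did. The log2 fold change was -0.45 in BL6 (SE 0.10, adjusted p = 0.00123), which was lost with scaling by library totals alone (-0.32, adjusted p = 0.0617). The MRL difference was 0.13 (interval -0.07 to 0.33, adjusted p = 0.300).

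**Figure D3:**
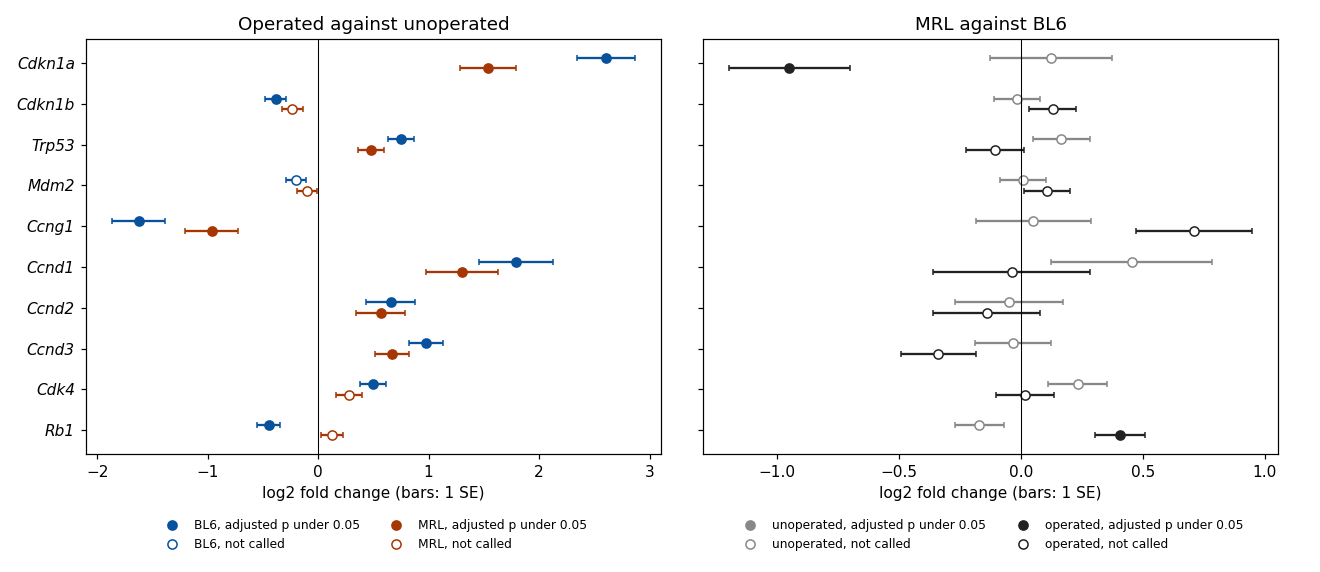
Log2 fold change of each gene with a bar of 1 SE, operated against unoperated in each strain (left) and MRL against BL6 in unoperated and operated samples (right); filled points passed the test. After surgery Cdkn1a has the largest rise (2.61 in BL6, 1.54 in MRL) and Ccng1 the largest fall (-1.63 and -0.97).

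In all, 9 of the 10 genes passed the test after surgery in BL6, 6 higher and 3 lower, where 67.9% of all genes tested passed (35.1% higher, 32.8% lower). In MRL 6 passed, 5 higher and 1 lower, against 45% of all genes (22.3% higher, 22.7% lower). With shares that high, the counts are read only against them, and the direction and size of each gene carry the description. Without operated BL6 replicate 4 and unoperated MRL replicate 1 the counts were 8 in BL6 and 8 in MRL. Without operated MRL replicate 4 they were 9 and 6, and those in MRL were then 4 higher and 2 lower. Without unoperated BL6 replicate 1 they were 9 and 6 as well. The median log2 fold change of the 10 was 0.58 in BL6 and 0.38 in MRL, against 0.04 and 0.01 for all genes. Groups did not overlap for 8 of the 10 in each strain, against 56.8% of all genes in BL6 and 33.7% in MRL. Both surgery comparisons rest on the 16 samples of one fit, and the strain comparisons below share their samples with them.

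Between the unoperated strains, none of the 10 genes passed the test (edgeR; 0 at an unadjusted p under 0.05, and 0 in the authors' deposited table), where 10.4% of all genes passed (5.02% higher and 5.36% lower in MRL). Cdkn1a differed by 0.12 on the log2 scale (MRL minus BL6, interval -0.37 to 0.61, adjusted p = 0.814). That interval holds neither a 2-fold higher nor a 2-fold lower level in MRL. Cdk4 was the only one of the 10 whose unoperated groups did not overlap, at 33.0 to 39.6 CPM in MRL against 29.0 to 32.6 in BL6, where 25.1% of all genes did not overlap. Its difference of 0.23 (interval 0.00 to 0.47) did not pass (adjusted p = 0.251).

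Between the operated strains, Cdkn1a was lower and Rb1 higher in MRL, 2 of the 10 genes, where 12.9% of all genes passed (7.6% higher, 5.27% lower). Cdkn1a differed by -0.95 (SE 0.25, adjusted p = 0.0188), a level 1.93-fold lower in MRL. This call was lost without operated BL6 replicate 4 (-0.78, adjusted p = 0.0544) and without operated MRL replicate 1 (-0.79, adjusted p = 0.0556). It was also lost with scaling by library totals alone (adjusted p = 0.0646) and when only the operated samples were fitted (adjusted p = 0.120), and it held in 20 of 25 other settings. Rb1 differed by 0.41 (SE 0.10, adjusted p = 0.0142) and was lost in 1 of 25, the fit to operated samples alone (adjusted p = 0.134). For both genes the operated groups did not overlap, against 13.6% of all genes. Ccng1 was higher in operated MRL by 0.71 (SE 0.24) without passing (adjusted p = 0.0619), and it passed in 5 of 25 other settings, among them without operated BL6 replicate 2 or without operated MRL replicate 3. The other 7 differed by -0.34 to 0.13 and did not pass.

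The difference between the surgery effects of the strains did not pass for any of the 10 genes, where 0.248% of all genes passed with edgeR (0.154% with a larger, 0.0939% with a smaller value in MRL). At an unadjusted p under 0.05 it reached 2 of them, Cdkn1a and Rb1, against 15.7% of all genes, and DESeq2 called 1, Rb1 (adjusted p = 0.0178). For Cdkn1a the MRL effect was smaller by 1.07 on the log2 scale (log2 difference -1.07, SE 0.35, adjusted p = 0.193), and its adjusted p ran from 0.0882 to 0.385 over the other settings. For Rb1 the difference was 0.58 (SE 0.14, adjusted p = 0.106). So the larger Cdkn1a rise in BL6 and the Rb1 fall seen in BL6 alone are not shown to differ between strains at this threshold.

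**Figure D4:**
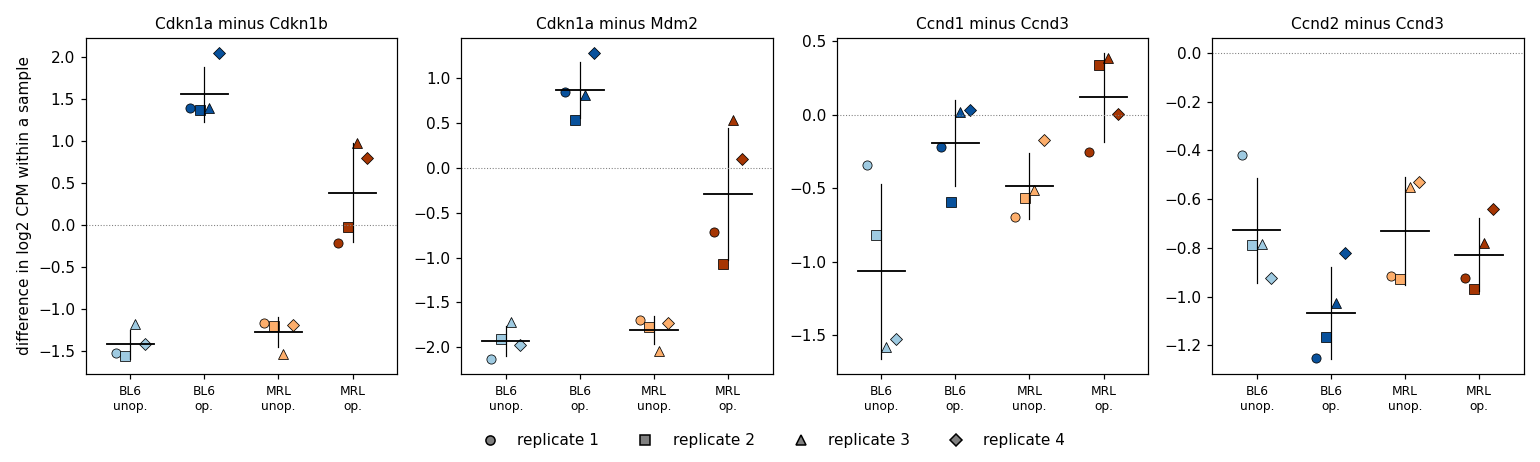
Difference in log2 CPM between pairs of the genes within each sample, one panel per pair, with points for samples, a line for the mean and a bar for 1 SD. Cdkn1a minus Cdkn1b is negative in all unoperated samples, positive in all 4 operated BL6 samples and spread from -0.22 to 0.98 in operated MRL. Gene length is not corrected for, so the sign does not show which gene is higher per length.

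Levels can be set side by side between genes only per length, here as CPM per kb of exons in GENCODE M21. Ccng1 was highest in every group. It stood at 242 ± 31.3 CPM per kb before and 78.4 ± 29.2 after surgery in BL6, and at 251 ± 44.4 and 128 ± 31.4 in MRL (SD, n = 4). In unoperated BL6 the order below it was Mdm2 (11.7), Cdk4 (9.32), Cdkn1b (9.20), Cdkn1a (4.42), Trp53 (3.93), Rb1 (3.80), Ccnd3 (2.40), Ccnd1 (2.30) and Ccnd2 (1.37 CPM per kb). Neighbours overlapped in their sample ranges between Cdk4 and Cdkn1b, from Cdkn1a through Trp53 to Rb1, and among the cyclin D genes. Unoperated MRL kept the first 7 places and exchanged Ccnd1 (3.15) with Ccnd3 (2.35), whose ranges overlapped by a little. After surgery Cdkn1a moved from position 5 to position 2, at 26.9 ± 5.80 CPM per kb in BL6, apart from Cdk4 below it at 13.1. In operated MRL it held position 2 as well, at 13.9 ± 6.29, but its range of 7.965 to 20.6 overlapped that of Cdk4 (13.3). That range also overlapped those of Mdm2, Ccnd1 and Cdkn1b. Ccnd2 was lowest in all 4 groups, at 1.32 to 2.15 CPM per kb.

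Among the 3 D-type cyclins the makeup shifted toward Ccnd1. Per kb it made up 36.5% ± 8.48 of their sum in unoperated BL6 and 53.01% ± 4.43 in operated BL6, and 45.9% ± 2.93 and 56.9% ± 5.22 in MRL (SD, n = 4). Ranges did not overlap within a strain: 28.7 to 46.3% against 46.6 to 56.4% in BL6, and 43.5 to 50.1% against 51.2 to 61.5% in MRL. Ccnd2 went from 22.7% to 14.4% in BL6 and from 19.4% to 14.9% in MRL. These shares carry no test. The table does not state whether counting used strand, so reads cannot be told apart where exons of opposite strands overlap. Only whole gene spans were compared, and whether exons overlap was not tested. On the other strand Ccnd1 overlaps LTO1, Cdk4 overlaps Tspan31, Ccnd3 overlaps Bysl and Rb1 overlaps Rcbtb2 and Lpar6. Genes outside the count table overlap as well. Cdkn1a overlaps AC167363.2 and Ccnd2 overlaps Gm43126 and 9330179D12Rik on the other strand, and Rb1 overlaps Gm17233 and Mir687 on its own.

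Other genes of the pathway were taken from lists of known members, whose counts are read against the same shares of all genes (35.1% higher and 32.8% lower in BL6, 22.3% and 22.7% in MRL). Of 30 further p53 targets 25 were tested, and after surgery in BL6 10 rose, 7 fell and 8 did not pass. In MRL 10 rose, 5 fell and 10 did not pass. Bbc3, which encodes the death promoter PUMA, had the largest rise in both (2.04, SE 0.44, adjusted p = 0.000993 in BL6; 1.48, SE 0.44, adjusted p = 0.0145 in MRL), at a mean of 0.849 CPM in unoperated and 3.47 CPM in operated BL6. The MRL call of Bbc3 was lost without operated MRL replicate 3 (1.28, adjusted p = 0.0512). The kinase gene Plk2 rose by 1.51 in BL6 (SE 0.29, adjusted p = 0.000358) and 1.30 in MRL (SE 0.29, adjusted p = 0.00349). The death receptor gene Fas rose by 1.01 in BL6 (SE 0.37, adjusted p = 0.0247) and 1.46 in MRL (SE 0.39, adjusted p = 0.00848). Aen, an exonuclease gene, fell by 1.67 in BL6 (SE 0.32, adjusted p = 0.000355), from 37.4 ± 4.56 to 11.7 ± 2.90 CPM (SD, n = 4). Rrm2b, which encodes the p53-inducible subunit of ribonucleotide reductase, fell by 1.65 in BL6 (SE 0.17, adjusted p = 8.917e-06), from 24.2 ± 2.03 to 7.77 ± 1.94 CPM. The median over the 25 was 0.16 in BL6 and 0.22 in MRL, against 0.04 and 0.01 for all genes.

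In the strain comparisons 5 of these 25 targets were lower in unoperated MRL and none was higher. Of all genes, 5.36% were lower and 5.02% higher there, and 5.27% were lower and 7.6% higher in operated MRL. For the difference between surgery effects 0.248% of all genes passed. Fas was at 8.11 ± 1.29 CPM in unoperated BL6 and 2.64 ± 1.10 CPM in unoperated MRL (SD, n = 4; log2 difference -1.62, SE 0.39, adjusted p = 0.0123). Rrm2b was at 24.2 ± 2.03 and 12.1 ± 2.08 CPM (-1.002, SE 0.16, adjusted p = 0.000553). In operated samples Phlda3, a p53 target that restrains Akt, was the one target called with edgeR, lower in MRL at 82.9 ± 16.3 CPM against 162 ± 53.6 (-0.96, SE 0.22, adjusted p = 0.00752). Its unoperated mean was lower in MRL as well, at 95.4 ± 12.9 CPM against 163 ± 34.1 CPM in BL6. The Phlda3 call in operated samples was lost when only these samples were fitted (adjusted p = 0.0511). Over 25 other settings the number of targets called there ran from 0 in that fit to 4 with DESeq2, all lower in MRL. Rrm2b was also the one target called in the difference between surgery effects (1.28, SE 0.23, adjusted p = 0.0369), and this call held in 11 of 24 other settings. It was lost in 12 of the 16 fits that left out 1 sample, all but those without operated BL6 replicate 2 or 4, unoperated MRL replicate 3 or operated MRL replicate 3.

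Of 14 regulators of p53, 12 were tested. In BL6 2 rose, 4 fell and 6 did not pass, and in MRL 3 rose, 3 fell and 6 did not pass. The kinase gene Hipk2 had the largest fall of the list, from 49.6 ± 9.20 to 3.65 ± 0.47 CPM in BL6 (SD, n = 4; log2 fold change -3.77, SE 0.54, adjusted p = 4.836e-05). In MRL it went from 38.8 ± 21.6 to 8.11 ± 7.004 CPM (-2.24, SE 0.50, adjusted p = 0.00366). Operated MRL replicate 4 held 18.6 CPM of Hipk2, and without it the MRL value was -3.06 (adjusted p = 0.000104). Unoperated MRL replicate 1 held only 10.1 CPM of Hipk2, under that operated sample, so the MRL groups overlapped. Atm, the DNA damage kinase gene, fell by 2.08 in BL6 (SE 0.21, adjusted p = 8.772e-06) and by 0.92 in MRL (SE 0.20, adjusted p = 0.00322). It was higher in operated MRL than in operated BL6, at 5.36 ± 1.51 against 3.11 ± 0.15 CPM (0.79, SE 0.21, adjusted p = 0.0186), a call lost without operated BL6 replicate 3 or operated MRL replicate 4, with voom and with the operated samples alone. The acetyltransferase gene Ep300 fell by 1.35 in BL6 (SE 0.18, adjusted p = 3.017e-05). Chek2, a checkpoint kinase gene, rose by 1.07 in BL6 (SE 0.30, adjusted p = 0.00553) and 1.63 in MRL (SE 0.30, adjusted p = 0.00159). The median was -0.09 in BL6 and 0.09 in MRL.

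Of 5 other CDK inhibitors 3 were tested, and 1 rose in each strain. It was Cdkn1c, the gene of p57 and the remaining relative of p21 and p27, which went from 17.9 ± 1.03 to 45.5 ± 9.03 CPM in BL6 (SD, n = 4; 1.35, SE 0.20, adjusted p = 6.985e-05) and from 18.8 ± 3.62 to 32.9 ± 10.3 CPM in MRL (0.80, SE 0.20, adjusted p = 0.00664). Of the p21 family, then, Cdkn1a and Cdkn1c rose in both strains and Cdkn1b fell in BL6. The other 2 tested, Cdkn2c and Cdkn2d, passed in neither strain.

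Of 8 other G1 kinases and cyclins 7 were tested, with 2 higher and 4 lower in BL6 and 2 higher and 2 lower in MRL. The kinase genes Cdk2 and Cdk6 were the 2 that rose. Cdk2 rose by 0.96 in BL6 (SE 0.18, adjusted p = 0.00033) and 0.78 in MRL (SE 0.18, adjusted p = 0.00445), and Cdk6 by 0.76 (SE 0.23, adjusted p = 0.00982) and 0.85 (SE 0.24, adjusted p = 0.0109). Ccne2, the gene of cyclin E2, fell from 5.50 ± 1.03 to 0.774 ± 0.33 CPM in BL6 (SD, n = 4; -2.84, SE 0.32, adjusted p = 1.297e-05) and from 5.37 ± 0.74 to 1.89 ± 0.73 CPM in MRL (-1.49, SE 0.29, adjusted p = 0.00196). Among operated samples it was higher in MRL (1.32, SE 0.31, adjusted p = 0.0111), a call lost with the operated samples alone (adjusted p = 0.115).

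Of 12 pocket protein and E2F genes, which act with or downstream of Rb1, 9 were tested. In BL6 1 rose and 6 fell, and in MRL 3 rose and 6 fell. The median of the list was -1.11 in BL6 and -0.57 in MRL, against 0.04 and 0.01 for all genes. E2f3, an activating E2F, fell by 1.71 in BL6 (SE 0.16, adjusted p = 5.903e-06), from 21.6 ± 0.51 to 6.62 ± 0.51 CPM (SD, n = 4), and was higher in operated MRL at 10.2 ± 2.56 CPM (0.62, SE 0.16, adjusted p = 0.0154; 0.0988 and no longer past the test with the operated samples alone). Tfdp2, a partner of the E2F factors, fell by 1.25 in BL6 (SE 0.18, adjusted p = 5.896e-05) and by 1.18 in MRL (SE 0.18, adjusted p = 0.0007). E2f6, a repressor, fell by 1.16 in BL6 (SE 0.19, adjusted p = 0.000113). E2f6 and E2f3 were also among the 6 that fell in MRL. E2f6 went from 186 ± 28.1 to 125 ± 21.6 CPM there, and E2f3 from 20.6 ± 3.48 to 10.2 ± 2.56 CPM. In MRL the pocket protein gene Rbl1 rose by 1.07 (SE 0.29, adjusted p = 0.00909), from 1.37 ± 0.48 to 2.90 ± 0.84 CPM, and E2f2 by 1.10 (SE 0.36, adjusted p = 0.0209), the latter lost without unoperated MRL replicate 4 (adjusted p = 0.0539) or operated MRL replicate 4 (adjusted p = 0.0743). Rbl1 was lower in unoperated MRL than in unoperated BL6 (-1.01, SE 0.29, adjusted p = 0.0352), a call lost without unoperated BL6 replicate 1, 3 or 4 or unoperated MRL replicate 3 or 4.

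Of 24 genes of S phase, G2 and mitosis only 10 were tested. In each strain 3 rose, 3 fell and 4 did not pass. The MRL count of 6 fell to 3, 1 higher and 2 lower, without unoperated MRL replicate 2, 3 or 4, without operated MRL replicate 3 and with scaling by library totals alone. Mcm6, a subunit of the replicative helicase, rose by 1.44 in BL6 (SE 0.21, adjusted p = 4.941e-05) and 1.42 in MRL (SE 0.21, adjusted p = 0.000602). The mitotic kinase gene Aurka fell by 1.26 in BL6 (SE 0.22, adjusted p = 0.000163) and 1.04 in MRL (SE 0.21, adjusted p = 0.00213), and Rrm1, the large subunit of ribonucleotide reductase, by 0.88 (SE 0.13, adjusted p = 5.13e-05) and 0.48 (SE 0.13, adjusted p = 0.00791). Aurka was higher in MRL in both states, at 35.0 ± 1.51 against 11.3 ± 2.47 CPM unoperated (SD, n = 4; 1.63, SE 0.21, adjusted p = 5.483e-05) and 17.0 ± 3.18 against 4.73 ± 1.63 CPM operated (1.85, SE 0.22, adjusted p = 2.372e-05). In unoperated samples Rrm1 was lower in MRL (-0.42, SE 0.13, adjusted p = 0.0463), a call lost in 10 of the 16 fits that left out 1 sample and kept without unoperated BL6 replicate 1, operated BL6 replicate 2 or 4, unoperated MRL replicate 3 or operated MRL replicate 3 or 4. Pcna, the polymerase clamp, was lower in operated MRL (-0.56, SE 0.12, adjusted p = 0.00561), a call lost with scaling by library totals alone (adjusted p = 0.0691) and with the operated samples alone (adjusted p = 0.0749). Its unoperated mean was lower in MRL as well, at 6.69 ± 0.41 CPM against 8.90 ± 0.55 CPM in BL6.

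As a check on the operation, 9 of 10 genes known to respond to denervation were tested. Myog, the myogenin gene, went from 3.06 ± 1.24 to 12.7 ± 4.05 CPM in BL6 (SD, n = 4; 2.05, SE 0.32, adjusted p = 9.264e-05) and from 3.05 ± 1.16 to 11.0 ± 2.98 CPM in MRL (1.85, SE 0.32, adjusted p = 0.0012). Runx1 rose by 1.79 in BL6 (SE 0.39, adjusted p = 0.000901) and 1.19 in MRL (SE 0.38, adjusted p = 0.0199), and Ncam1 by 1.41 (SE 0.40, adjusted p = 0.00625) and 1.09 (SE 0.40, adjusted p = 0.0388). Operated BL6 replicate 4 held 38.2 CPM of Ncam1, and without it the BL6 value was 0.75 (adjusted p = 0.0421). In MRL the Runx1 call was lost without unoperated replicate 2 or 3 or operated replicate 4, and the Ncam1 call without unoperated replicate 2, 3 or 4 or operated replicate 3 or 4. The list as a whole held 4 rises and 4 falls in BL6 and 5 rises and 2 falls in MRL. The MRL count of 7 fell to 3, all rises, without unoperated MRL replicate 2 or 3, and to 4 without unoperated MRL replicate 4, without operated MRL replicate 1, 3 or 4 and with scaling by library totals alone. Chrna1, an acetylcholine receptor subunit known to rise with denervation, was among those that fell. It was also lower in MRL than in BL6 in unoperated samples (-0.64, SE 0.14, adjusted p = 0.0066) and operated ones (-0.54, SE 0.14, adjusted p = 0.0196; lost without operated BL6 replicate 3 or operated MRL replicate 3 and with the operated samples alone). Another subunit, Chrnd, was lower in unoperated MRL (-0.89, SE 0.18, adjusted p = 0.00393), and Hdac9 was higher in operated MRL (0.71, SE 0.22, adjusted p = 0.0459), a call lost in 13 of the 16 fits that left out 1 sample and kept without unoperated BL6 replicate 4, operated BL6 replicate 4 or operated MRL replicate 3.

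**Figure D5:**
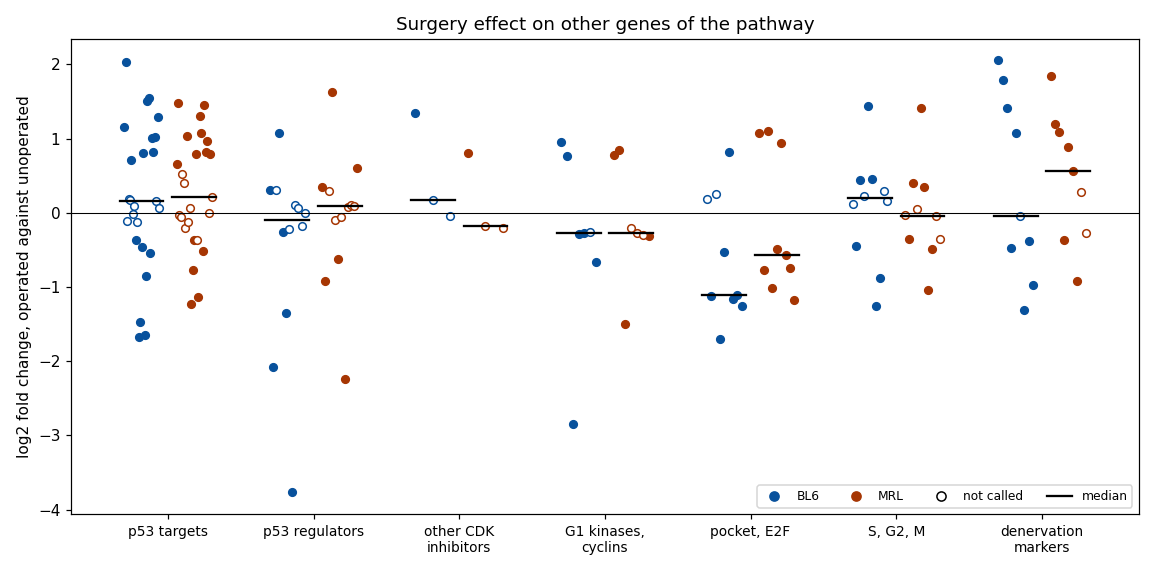
Log2 fold change after surgery of every tested gene of the 7 pathway lists, in BL6 and in MRL, with one point per gene (filled where it passed the test) and a line at the median of the list. The pocket protein and E2F list has the lowest median, -1.11 in BL6 and -0.57 in MRL, while the 25 p53 targets lie on both sides of 0.

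The genes whose levels ran most like Cdkn1a across the 16 samples were found among 11130 tested genes with ordinary symbols, by Pearson's r of log2 CPM. They were Grrp1 (r = 0.96), Smim3 (0.96), Pdlim1 (0.96), Zfp185 (0.95) and Tmbim1 (0.94). Grrp1 had group means of 2.08 and 10.6 CPM in BL6 (unoperated, then operated) and of 2.04 and 6.38 CPM in MRL. Pdlim1, the gene of a PDZ and LIM domain protein, had means of 16.7, 48.5, 20.6 and 37.5 CPM in that order. At the other end stood Tsc22d2 (-0.97), Trmt10c (-0.96) and the receptor gene P2ry1 (-0.95), and Tsc22d2 had means of 33.8, 15.6, 34.0 and 22.7 CPM. Among the checkpoint genes the value with Cdkn1a was 0.89 for Ccnd3, 0.82 for Trp53, 0.79 for Ccnd1, 0.74 for Ccnd2, 0.72 for Cdk4, -0.59 for Rb1, -0.65 for Mdm2, -0.73 for Cdkn1b and -0.90 for Ccng1. These values describe the 16 samples and carry no test, since the points share the 4 groups, their depths and their cell makeup.

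The authors' deposited table, which holds 4 of the 5 comparisons, called 8 of the 10 genes after surgery in BL6, 8 in MRL, 0 between unoperated and 2 between operated strains. All 8 of its BL6 calls were also called here, and 6 of its 8 MRL calls. Ccnd2 in BL6 stood at a false discovery rate of 0.052 in the authors' deposited table. Cdkn1b (0.0317) and Cdk4 (0.00371) in MRL were called in the authors' deposited table and not here. Between operated strains the authors' deposited table gave Cdkn1a a log2 fold change of -0.86 with a false discovery rate of 0.0375.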

How the data were processed

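RNA of 16 rotator cuff muscle samples was sequenced. Per the submitters' processing notes, FastQC, STAR, edgeR and the mm10 genome were used, with no version or role given here; the counting program, annotation, use of strand and any filter are not given in the sources used here. The deposited file of the authors holds raw whole-number counts per gene, with a lowest mean of 1.05 CPM. The authors' deposited table gives an average log2 CPM and, for 4 comparisons, each gene's log2 fold change with its p-value and false discovery rate, per the file headers.

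Counts were scaled by TMM and tested in R 4.3.3 with edgeR 4.0.16 (quasi-likelihood test, 1 mean per group, all 16 samples in one fit). The filterByExpr step (minimum count 10) kept 11709 genes and removed 1. P-values were adjusted by Benjamini-Hochberg across the whole table, with calls at adjusted p below 0.05. The SE came from the F statistic, and intervals are 1.96 SE on either side. Log2 CPM used a prior count of 2, as did the within-sample differences. A count of 3, taken as the floor, was worth 0.0718 to 0.122 CPM, which covers counting error only. The pipeline was tested on simulated data. Replicates of a group differed well beyond sampling noise, with a chi-square per degree of freedom of at least 14.8. DESeq2 1.42.0 and limma 3.58.1 (voom), other scalings and filters, left-out samples and a replicate block served as alternatives.

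The 10 genes and all lists were chosen with earlier results of these data known, and the lists are of known pathway members and cell type markers. Named from the 7 lists are the 3 called genes of largest change in each surgery comparison and the 2 of largest change in each other comparison; named beside Cdkn1a are the 5 most and 3 least correlated genes. Cdkn2c and Cdkn2d are named outside that rule, after their values were seen. Gene positions and exon lengths are from GENCODE M21. Promoters were those of 300 bases in the RefSeq table.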

Additional observations from a re-analysis of the deposited data

Results flagged for a closer look

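In 20 of 172 groups of 4 samples checked, 1 sample lay far from the other 3: its gap to the nearest of them, divided by the whole range, was above the critical value of Dixon's test at 95%. Chance marks about 1 in 20 groups. Among the checkpoint genes, Cdkn1b was at 28.72 CPM in operated MRL replicate 2, below the others. Ccnd2 was at 32.59 CPM in operated BL6 replicate 4 and at 22.4 CPM in operated MRL replicate 3, and Rb1 at 18.85 CPM in operated BL6 replicate 1 and 21.57 CPM in unoperated MRL replicate 2, each above the others. The difference in log2 CPM of Cdkn1a minus Cdkn1b was 2.044 in operated BL6 replicate 4, above the others, and -1.541 in unoperated MRL replicate 3, below them.

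Among p53 targets and regulators, Aen was at 16.04 CPM in operated BL6 replicate 2 and at 33.99 CPM in unoperated MRL replicate 1. Plk2 was at 9.579 CPM in unoperated BL6 replicate 4. Hipk2 was at 35.88 CPM in unoperated BL6 replicate 2 and 18.56 CPM in operated MRL replicate 4. Among cell cycle genes, Ccne2 was at 7.029 CPM in unoperated BL6 replicate 1, Cdk6 at 2.201 CPM in unoperated MRL replicate 1, Aurka at 12.26 CPM in operated MRL replicate 1 and Rrm1 at 27.23 CPM in operated MRL replicate 3. Among denervation genes, Runx1 was at 14.81 CPM in operated BL6 replicate 4, Ncam1 at 8.501 CPM in unoperated BL6 replicate 1, Chrna1 at 16.46 CPM in unoperated BL6 replicate 3 and Hdac9 at 8.844 CPM in operated MRL replicate 4.

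The effect of surgery on Rrm2b differed between the strains by 1.28 on the log2 scale (MRL minus BL6, edgeR adjusted p = 0.0369). Rrm2b went from 24.2 ± 2.03 to 7.77 ± 1.94 CPM in BL6 and from 12.1 ± 2.08 to 9.37 ± 0.85 CPM in MRL (SD, n = 4). The adjusted p was over 0.05 in 13 of 24 other settings and reached 0.104.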

How the results depend on the processing

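Of the 10 genes, 9 (BL6) and 6 (MRL) were called after surgery, and over 25 alternatives the counts ran from 7 to 10 in BL6 and from 5 to 8 in MRL. The count of all genes called for the difference between surgery effects was least settled: 29 as reported, 14 with total counts only, 250 with DESeq2, and 1 to 69 without a sample each; DESeq2 also called 1 of the 10 there. Between unoperated strains 1216 genes were called, 2438 when only the groups compared were fitted and 821 to 1572 without a sample each. Between operated strains 1507 were called, 575 with only the groups compared and 1030 to 1842 without a sample each. Of the 10, 0 were called there with only the groups compared, 1 without operated BL6 replicate 4 and unoperated MRL replicate 1 together, and 1 to 3 without a sample each, against 2. After surgery in MRL, leaving out a sample gave 3490 to 6145 genes against 5272, the lowest without operated MRL replicate 3. Replicate numbers 1 to 4 are shared by the groups. In 12 of 24 pairs of same-numbered samples the deviations correlated over 0.1, and in 12 they did not (range -0.47 to 0.45). With 4 samples per group this cannot decide whether the numbers pair samples, so the fit with a replicate block is given beside the main one. With the replicate block, 2 genes were called for the difference between surgery effects, and the counts of the 10 were 9, 6, 0, 0 and 2, as without it. Among other named genes, the calls lost with the block were Rrm2b for the difference between surgery effects (1.29, adjusted p = 0.0903) and, between unoperated strains, Rbl1 (-1.02, adjusted p = 0.0556) and Rrm1 (-0.42, adjusted p = 0.0741); the S phase, G2 and mitosis count in MRL went from 6 to 3. Total-count scaling moved the median of all genes from 0.04 to 0.18 after surgery in BL6 and from 0.01 to 0.15 between unoperated strains; higher genes then made up 70.3% of calls against 48.4% between unoperated strains and 72.2% against 59.1% between operated ones. Uncalled differences near 0 changed sign. Between unoperated strains these were Cdkn1b (0.13), Ccnd2 (0.0834) and Ccnd3 (0.11) with total counts only, Cdkn1b (0.009) without both samples, and Mdm2 (-0.0083) without mitochondrial genes; leaving out a sample gave Ccnd2 -0.16 to 0.10, Ccnd3 -0.10 to 0.0322, Ccng1 -0.0243 to 0.16, Cdkn1b -0.0638 to 0.0268 and Mdm2 -0.0176 to 0.0338. Between operated strains they were Ccnd1 (6e-04 with voom, 0.0101 with the replicate block, 0.27 without both samples; -0.23 to 0.27 without a sample each), Ccnd2 (0.19 without both samples; -0.26 to 0.19) and Cdk4 (-0.0823 to 0.17). For the difference between surgery effects it was Ccnd2 (0.24 without both samples; -0.24 to 0.25). The cause was not tested. Depth limits little here, since every one of the 10 genes stood at 6.63 CPM or more in every sample.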

Other observations

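Markers of other cell types in the muscle were followed after surgery as well. Their counts are read against the shares of all genes, 35.1% higher and 32.8% lower in BL6 and 22.3% and 22.7% in MRL. All 4 adipocyte markers tested rose in both strains, and their summed level went from 208 to 279 CPM over the unoperated BL6 samples to 1209 to 1656 CPM over the operated ones, and from 263 to 369 CPM to 1086 to 1902 CPM in MRL. Schwann cell markers rose in 5 of 5 (BL6) and 4 of 5 (MRL), and endothelial markers in 4 of 5 and 5 of 5. Fibroblast markers rose in 4 of 7 and 1 of 7, and macrophage and leukocyte markers in 5 of 8 and 1 of 8. Both of these MRL counts lay under the share of all genes. Unoperated MRL replicate 1 stood high in both sums, at 2640 CPM of fibroblast and 312 CPM of macrophage and leukocyte markers. The other unoperated MRL samples held 1434 to 1464 and 75.5 to 97.5 CPM. All operated MRL samples lay above those, at 1950 to 3931 and 127 to 238 CPM. The low counts therefore do not show that these markers stayed level in MRL. Muscle fibre markers fell in 3 of 8 (BL6) and 2 of 8 (MRL), near the share of all genes, and rose in none. Of 3 satellite cell markers tested, 1 rose and 2 fell in BL6, and 1 rose and 1 fell in MRL. In the difference between surgery effects, none of these markers passed the edgeR test, where 0.248% of all genes passed. The part of these cell types in the levels of the checkpoint genes was not tested.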
